A study of Mus musculus with 30 samples.

Results

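The interval from 60 to 72 h of undirected differentiation was examined in mouse secondary induced pluripotent stem cells (iPSCs) by RNA-seq of polyadenylated RNA. It covered 4 of the 30 RNA-seq samples of the series, 2 replicates collected 60 h and 2 collected 72 h after withdrawal of 2i/LIF. The deposited table gives 1 value per condition, with both replicates already combined, in FPKM (fragments per kilobase of transcript after scaling for the number of mapped fragments). Genes with at least 1 FPKM at 60 h or 72 h were taken, which left 12636 of 22477. A gene is said to have risen or fallen below where its plain ratio of 72 h over 60 h was at least 2-fold in that direction. With 1 value per condition, no spread between replicates, standard error or p-value can be given for any difference, and these words carry no test. At the edge of that limit, Rasgef1b, at 1.0006 and 0.851 FPKM at 60 and 72 h, was just inside it, and Trim62, at 0.9372 and 0.9994 FPKM, just outside.

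All 4 samples came from the same kind of cell. The iPSCs carry transgenes for Oct4, Sox2, Klf4 and cMyc (OSKM) that doxycycline (dox) switches on, and GFP takes the place of a single Nanog allele. They were kept in serum/LIF, moved to 2i/LIF, a medium with inhibitors of MEK and GSK3 plus the cytokine LIF, and then changed to N2B27 medium with neither. No dox was given in the time course, which holds 7 timepoints from 0 to 96 h. Transcripts of the transgenes and of the endogenous genes share their coding sequence, so values of Pou5f1 (Oct4), Sox2, Klf4 and Myc cannot be told apart by source. In a bulk sample, a higher level in every cell and a larger share of cells with the transcript cannot be told apart either.

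Mouse pluripotent cells released from 2i/LIF leave the naive state, pass through a formative state in which Fgf5, Otx2 and the de novo DNA methyltransferases are high, and then take up germ layer or extraembryonic programs. Nodal, a secreted ligand of the TGF-β family, acts through activin receptors and SMAD2 and SMAD3 with the DNA-binding partner FOXH1, and switches on its own gene and those of its inhibitors Lefty1 and Lefty2. The genes of the core histones and of the linker histone H1 that are made in S phase form clusters, and their mRNAs end in a stem-loop in place of a poly(A) tail.

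Of the 12636 genes, 375 (2.97%) rose and 287 (2.27%) fell between 60 and 72 h, and 11974 did neither. Scaling both columns to the same sum, which adds 0.19 to every log2 ratio, gave 630 risers and 201 fallers. The median log2 ratio was 0.02, the middle 90% of genes lay between -0.68 and 0.78, and 52.6% of the 12611 genes with a ratio were above 0. Changes this size were most frequent at low levels. Between 1 and 2 FPKM, 20.6% of 1383 genes changed at least 2-fold, against 1.27% of 4809 genes between 10 and 50 FPKM. Only 67 of the 375 risers and 39 of the 287 fallers reached 10 FPKM, and 31 of those 67 were histone genes. The depth behind each value is unknown, so counting error cannot be set against the changes of the low genes. On the gene lists described below, 12 of the 32 genes that rose were under 1 FPKM at 60 h and 1 of the 7 that fell was under 1 FPKM at 72 h, so these were tested only through the column in which they were high. Each list count below is to be read beside the 2.97% and 2.27% of all genes tested.

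Compared with the neighbouring intervals, few genes moved. At least 2-fold changes in either direction covered 23% of the genes tested from 0 to 24 h, 11.7% from 24 to 36 h, 4.79% from 36 to 48 h, 9.24% from 48 to 60 h and 10.1% from 72 to 96 h. The first and the last of these intervals last 24 h and the others 12 h. From 60 to 72 h the share was 5.24%, the second lowest of the 6. These intervals share columns, so their shares are given side by side only.

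**Figure D1:**
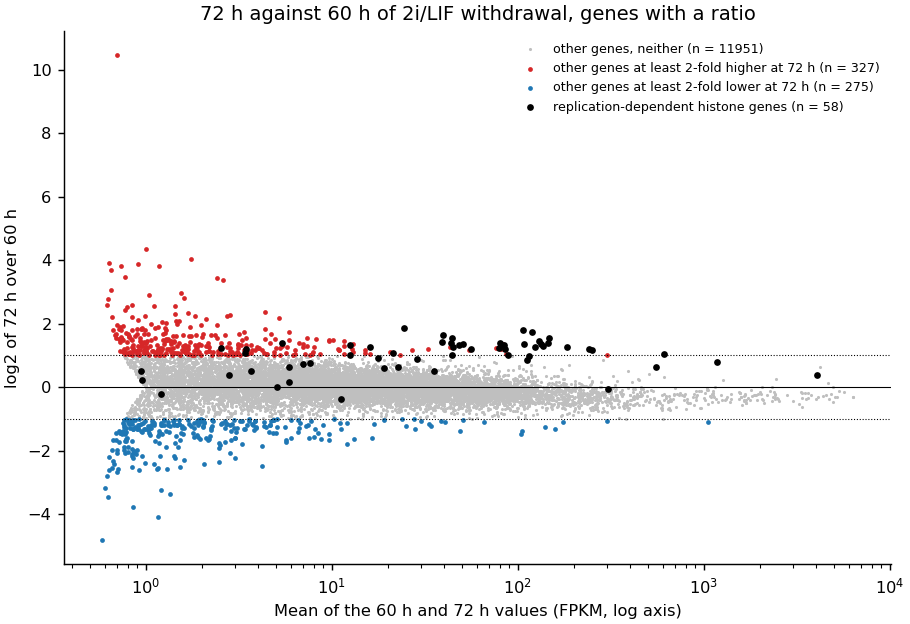
Each point is a gene with at least 1 FPKM at 60 h or 72 h and a value above 0 at both. The x axis gives the mean of both values in FPKM on a log axis and the y axis the log2 of 72 h over 60 h. Dotted lines mark the 2-fold limits, and the replication-dependent histone genes, in black, lie mostly above the upper line at levels where few other genes do.

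Short transcripts read lower at 72 h than long ones. Without the histone genes, the median log2 ratio was -0.32 for 646 genes whose longest annotated transcript is over 500 and up to 1000 nt, 0.00 for 4809 genes of 2000 to 4000 nt, and 0.14 for 3659 genes of 4000 to 8000 nt. At 10 FPKM or more in both columns the same 3 medians were -0.34, -0.05 and 0.06. The gap between transcripts up to 1000 nt (median -0.31) and over 8000 nt (median 0.16) was wider from 60 to 72 h than in the other 5 intervals. The summed FPKM fell with it, from 686563 at 60 h to 603278 at 72 h. The part of transcript length in the ratios below was not tested, and for the main lists of genes the median is also given after the median ratio of the transcript length class of each gene was subtracted.

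Genes of the ribosome and the respiratory chain, with short transcripts, shared a small shift. Of 106 genes named for cytosolic ribosomal proteins, 93 were lower at 72 h, with a median log2 ratio of -0.28, or -0.06 after the length classes. Mitochondrial ribosomal protein genes had a median of -0.38, or -0.27, and were lower in 74 of 77, and subunits of the respiratory chain and ATP synthase had -0.33, or -0.16, and were lower in 87 of 94. Of all genes with a ratio, 52.6% were above 0. All 2126 genes reaching 50 FPKM had a median log2 ratio of -0.20, and these groups were not matched for level. Scaling both columns to the same sum would add 0.19 to each of these log2 ratios. Among the 5 largest decreases in FPKM were Ptma, from 4086 to 2644, Rps26, from 7045 to 5642, Rps27, from 7033 to 5632, and Rpl32, from 5309.9 to 4127. Ptma encodes prothymosin alpha and the others named encode ribosomal proteins, and none of the 5 fell 2-fold. The 5 largest increases in FPKM were Yam1, from 3325 to 5131, Hist1h2ao, from 3528 to 4579, Hist1h2ap, from 859 to 1499, Gm26917, from 2208 to 2649, and Ftl1, the ferritin light chain gene, from 4432 to 4862, again with none at 2-fold.

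The FPKM values of the replication-dependent histone genes were higher at 72 h as a family. Histone mRNAs that end in the stem-loop lack a poly(A) tail, and the libraries were selected for one. How much of them each library kept is not known, and its part in these values was not tested. Of 66 such genes in the table, 59 had at least 1 FPKM, and 36 of these rose and 0 fell, where 2.97% of all genes tested rose. Of the 58 with a ratio, 54 were above 0, from -0.36 to 1.85, with a median log2 ratio of 1.19. Of the 59, 51 lie on chromosome 13, most of them in the large histone cluster. By class, 9 of 12 H4 genes rose, 11 of 17 H2A, 6 of 10 H3, 7 of 14 H2B and 3 of 6 H1. The family is near-identical between copies, so the FPKM of a single copy depends on how shared reads were divided and is uncertain, while a sum over a class depends on it less. Summed over the class, H4 went from 884 to 2024 FPKM, H3 from 248 to 656, H1 from 206 to 497, H2B from 783 to 1347 and H2A from 5270.3 to 7807.

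The stem-loop was sought anywhere in their annotated transcripts, since the libraries were made from RNA bound to oligo(dT). A script took from each annotated transcript the last stretch that begins with GG, pairs 6 bases with 6 bases and closes over a loop of 4 bases that starts with TTT. Such a stretch was found for 39 of the 59 histone genes and for 17 of 11992 other genes tested with a transcript, which is 0.142%. In 22 of the 39 it was the same 16 bases. The stretch is shown for the histone gene of each class with the largest ratio among those that hold it, as DNA letters of the sense strand of Gencode M21 (GRCm38), with the stem and loop in capitals and 5 bases on either side.
Hist1h1c, chr13:23739512-23739527, + strand: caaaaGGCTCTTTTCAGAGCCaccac
Hist1h2ac, chr13:23683477-23683492, - strand: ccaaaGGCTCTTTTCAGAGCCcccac
Hist1h2bb, chr13:23747203-23747218, + strand: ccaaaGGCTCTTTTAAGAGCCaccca
Hist1h3e, chr13:23561903-23561918, - strand: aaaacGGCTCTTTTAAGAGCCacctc
Hist1h4j, chr13:21735437-21735452, + strand: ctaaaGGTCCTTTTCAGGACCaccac
The coordinates are those of the capitals. They begin at base 705 of 1560 in the transcript of Hist1h1c, 457 of 2482 in Hist1h2ac and 470 of 508 in Hist1h2bb. In Hist1h3e they begin at base 452 of 836 and in Hist1h4j at 374 of 774. Most of these annotated transcripts thus run on well past the stem-loop, and whether such longer forms were captured was not tested. Of the 39 genes with the stem-loop 30 rose, with a median log2 ratio of 1.26, and of the 20 in which no transcript held these letters 6 rose. Most of those 20 are annotated by their coding part alone, so no match says nothing about their 3′ end.

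Histone values by timepoint show a step at 72 h. Hist1h4j (chr13:21735064-21735837) had the largest ratio of all genes reaching 10 FPKM, with 21.2, 12.8, 11.2, 16.3, 10.5, 37.996 and 31.9 FPKM at 0, 24, 36, 48, 60, 72 and 96 h. Hist1h4n had 101, 33.1, 56.2, 56.95, 47.7, 165 and 159 FPKM at the same timepoints, Hist1h3e 133, 63.1, 69.7, 73.3, 54.7, 182 and 173 FPKM and Hist1h2bb 157, 72.5, 77.4, 74.01, 74.8, 219 and 141 FPKM. Hist1h3f went from 18.98 to 59.8 FPKM between 60 and 72 h, Hist1h3d from 22.5 to 66.1 and Hist1h4h from 69.2 to 189, and these 7 genes are all the histone genes among the 12 largest rises. The median of the family relative to its 60 h values on the log2 scale was 0.32 (0 h), -0.21 (24 h), 0.09 (36 h), 0.23 (48 h), 1.19 (72 h) and 0.62 (96 h). In cells re-seeded in serum/LIF after 0, 24, 48 or 96 h it was -0.85, -0.38, 0.36 and -0.25 without dox. With dox it was -1.08, -0.62, 0.46 and -0.18. Histone variant genes outside the clusters had other values. H2afz, the H2A.Z gene, had 477 (60 h) and 395 FPKM (72 h), H3f3a had 319.6 (60 h) and 365 FPKM (72 h) and H3f3b had 344 (60 h) and 329 FPKM (72 h). The transcript of H2afx holds the stem-loop letters too, and H2afx had 175 (60 h) and 179 FPKM (72 h). No gene of the cell cycle list, given further on, changed 2-fold.

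**Figure D2:**
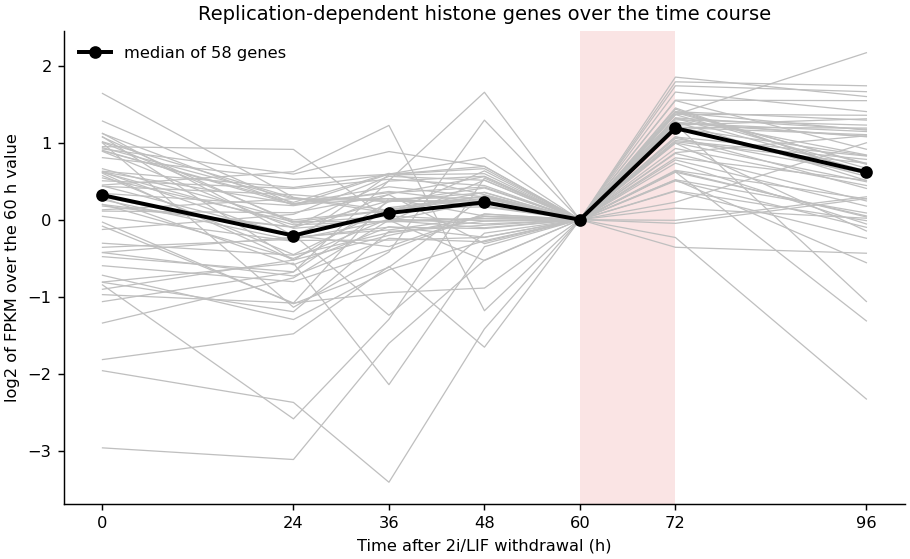
Grey lines are the 58 replication-dependent histone genes with a value above 0 at 60 h, and the black line is their median. The x axis is the time after 2i/LIF withdrawal in hours and the y axis the log2 of FPKM over the 60 h value of the same gene. The shaded interval is 60 to 72 h, in which the median rises to 1.19 before it stands at 0.62 at 96 h.

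Promoters of the histone genes were read from RefSeq (GRCm38.p6), which matched 53 of the 59. In the 250 bases before the start site, CCAAT was present on either strand in 45 of the 53 (84.9%), against 34.5% of 27025 promoters of the same length. TATAAA was present in 27 (50.9%) against 12.97%, and the octamer ATTTGCAT in 12 (22.6%) against 1.61%. The 150 bases before the start site are printed for the H2B and the H3 gene with the largest ratio, with all matches to the 3 motifs in capitals on either strand.
Hist1h2bb, chr13:23746584-23746733, + strand: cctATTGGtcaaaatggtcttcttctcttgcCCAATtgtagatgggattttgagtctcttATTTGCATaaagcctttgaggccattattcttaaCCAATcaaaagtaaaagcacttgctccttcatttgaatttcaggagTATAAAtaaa
Hist1h3e, chr13:23562386-23562535, - strand: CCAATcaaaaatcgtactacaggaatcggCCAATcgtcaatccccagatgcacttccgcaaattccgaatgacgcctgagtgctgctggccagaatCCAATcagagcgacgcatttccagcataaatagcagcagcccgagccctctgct
Both hold 3 matches to CCAAT, and Hist1h2bb also holds the octamer and TATAAA. A match is a description of the letters only.

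Some Nodal pathway genes rose, the ligand just past the limit. Of 20 genes listed for it, 18 had at least 1 FPKM, 4 rose and 0 fell, where 2.97% of all genes tested rose and 2.27% fell. The median log2 ratio was 0.35 (0.29 after the length classes), beside 0.02 for all genes tested. Those that rose included the ligand, an inhibitor of it and an inhibitory SMAD.

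Nodal (chr10:61417972-61425338) had 30.5, 19.08, 8.71, 7.16, 15.5, 30.9 and 13.9 FPKM at 0, 24, 36, 48, 60, 72 and 96 h. Its log2 ratio was 1.001, and 0.98 after division by the median ratio, which is under 2-fold. Its 72 h value was close to the 0 h value, with the lowest value at 48 h. Lefty1 (chr1:180935022-180938400), which encodes a secreted Nodal inhibitor, had 15.04, 9.399, 12.6, 9.56, 46.1, 119 and 49.4 FPKM. The 72 h value was the highest of the time course, 2.59-fold above 60 h, and 96 h was back near 60 h. Lefty2, its neighbour on chromosome 1, had 57.03, 11.97, 5.19, 3.03, 4.87, 7.32 and 5.63 FPKM and stayed far below its 0 h level. Smad7, which encodes an inhibitor of the receptors, had 17.4, 6.23, 4.16, 2.56, 3.21, 6.54 and 4.49 FPKM, a log2 ratio of 1.03 that became 0.96 after the length classes.

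Other Nodal pathway genes changed less than 2-fold. The co-receptor gene Tdgf1 (Cripto) had 20.6 (60 h) and 17.6 FPKM (72 h) and the related ligand Gdf3 25.7 (60 h) and 21.6 FPKM (72 h), both on the way down from 48 h. Foxh1 had 51.2 (60 h) and 58.2 FPKM (72 h). The convertase gene Furin, whose product processes Nodal, had 8.27 (60 h) and 12.9 FPKM (72 h), and Pcsk6, another convertase gene, 4.18 (60 h) and 4.34 FPKM (72 h). The receptor genes Acvr1b, Acvr2a and Acvr2b had log2 ratios of 0.37, 0.20 and 0.60, and the effector genes Smad2, Smad3 and Smad4 0.07, 0.42 and 0.32. Cer1 and Cfc1 were under 1 FPKM at both timepoints. Pmepa1, a SMAD target that dampens TGF-β signalling and was named after its values were seen, had 1.85 (48 h), 2.88 (60 h), 5.96 (72 h) and 3.21 FPKM (96 h).

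**Figure D3:**
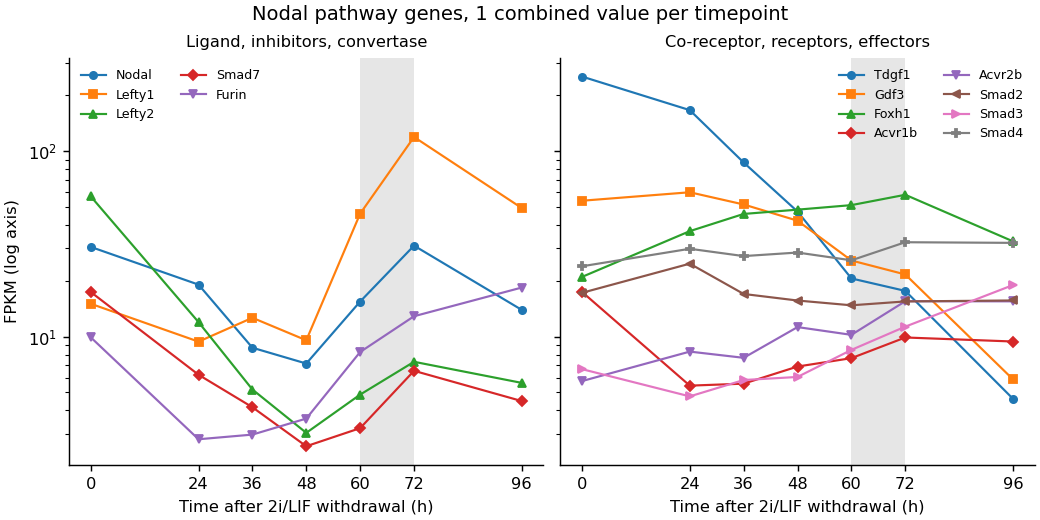
Lines give the combined FPKM (log axis) of Nodal pathway genes at the 7 timepoints, hours after 2i/LIF withdrawal on the x axis, with 60 to 72 h shaded. On the left, Nodal, Lefty1, Lefty2 and Smad7 reach a local peak at 72 h, and on the right Tdgf1 and Gdf3 decline while the receptor and effector genes stay within a narrow band.

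Naive pluripotency genes went both ways. Of 20, 17 had at least 1 FPKM, 2 rose and 1 fell, and 7 of the 17 had a log2 ratio above 0. The 2 that rose, Tbx3 and Jam2, were under 1 FPKM at 60 h and passed the minimum through 72 h alone. Of the 15 genes with at least 1 FPKM at both timepoints, 0 rose and 1 fell. The median log2 ratio of -0.25 became 0.02 after the length classes, so its sign depended on that step. Nanog, the homeobox gene that marks naive cells and of which a single allele is intact, had 227, 46.5, 9.18, 6.45, 21.7, 38.9 and 14.5 FPKM at 0, 24, 36, 48, 60, 72 and 96 h, a log2 ratio of 0.84 for this interval. It was lowest at 48 h, like Nodal. Tbx3, a T-box factor of naive cells, rose from 0.803 to 3.14 FPKM and Jam2, a junction protein gene, from 0.474 to 1.04. Tdh, the threonine dehydrogenase on which naive cells rely, fell from 15.1 to 6.94 FPKM after 62.3 at 48 h. Esrrb had 7.17 (60 h) and 9.44 FPKM (72 h), Klf2 9.07 (60 h) and 8.67 FPKM (72 h), Tfcp2l1 1.698 (60 h) and 2.78 FPKM (72 h) and Zfp42 (Rex1) 17.4 (60 h) and 14.6 FPKM (72 h). Dppa2, Dppa3, Dppa4 and Fgf4 were lower at 72 h by less than 2-fold, with log2 ratios of -0.80, -0.73, -0.34 and -0.60.

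No core pluripotency gene changed 2-fold. All 14 had at least 1 FPKM, and the median log2 ratio was -0.15 (-0.10 after the length classes). Pou5f1 had 139 (60 h) and 123 FPKM (72 h), Sox2 35.1 (60 h) and 36.9 FPKM (72 h) and Sall4 80.1 (60 h) and 72.3 FPKM (72 h). At 96 h Pou5f1 stood at 25.5 FPKM, so its larger drop lay after the interval. Lin28a, Utf1 and L1td1 had log2 ratios of 0.08, -0.16 and -0.03.

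Of the formative genes a single member passed the 2-fold limit. All 20 were measured, 1 fell and 0 rose, with a median log2 ratio of 0.04 (-0.00 after the length classes). Fgf5 had 19.8 (60 h) and 23.1 FPKM (72 h), Otx2 46.7 (60 h) and 47.8 FPKM (72 h) and Pou3f1 (Oct6) 54.7 (60 h) and 43.98 FPKM (72 h). Pim2 (chrX:7878262-7883432), a serine/threonine kinase gene, was the gene that fell, with 4.43, 82.5, 240.1, 286, 153, 58.3 and 27.4 FPKM at 0, 24, 36, 48, 60, 72 and 96 h.

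The de novo DNA methyltransferase genes were all lower at 72 h, by less than 2-fold. Dnmt3a had 292 (48 h), 144 (60 h), 73.6 (72 h) and 34.7 FPKM (96 h), Dnmt3b had 586 (48 h), 324 (60 h), 201 (72 h) and 78.7 FPKM (96 h), and their cofactor gene Dnmt3l had 221 (48 h), 87.5 (60 h), 53.9 (72 h) and 18.5 FPKM (96 h). The log2 ratios for 60 to 72 h were -0.97, -0.69 and -0.70, and after the length classes -1.13, -0.75 and -0.62. The maintenance genes Dnmt1 and Uhrf1 had 54.1 (60 h) and 60.4 FPKM (72 h) and 108 (60 h) and 109.6 FPKM (72 h). Over the whole list of DNA methylation and Polycomb genes, 0 of 19 changed 2-fold, and the median log2 ratio was 0.02 (-0.08 after the length classes). Ezh2, Eed and Suz12 of Polycomb repressive complex 2 had log2 ratios of -0.14, -0.42 and -0.04.

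Endoderm genes were mostly low or below the 2-fold limit. Of 20 listed, 7 had at least 1 FPKM at both timepoints, and of these 3 rose and 0 fell, with a median log2 ratio of 0.43. Of all genes with at least 1 FPKM at either timepoint 2.97% rose. A further 3, Gata4, Cubn and Amn, reached 1 FPKM at 72 h alone and are left out of that count, since only the column in which they were high brought them in. The transcription factor gene Gata4 had 0.429 (48 h), 0.397 (60 h), 1.401 (72 h) and 2.35 FPKM (96 h). Cubn, which encodes the uptake receptor cubilin of the visceral endoderm, had 0.218 (48 h), 0.115 (60 h), 1.7005 (72 h) and 1.11 FPKM (96 h), and its adaptor gene Dab2 3.66 (48 h), 8.22 (60 h), 17.6 (72 h) and 26.2 FPKM (96 h), a log2 ratio of 1.10 that became 0.98 after the length classes. Lama1, a laminin chain gene of early basement membranes, had 2.05 (48 h), 1.29 (60 h), 3.999 (72 h) and 5.21 FPKM (96 h), and Krt19 4.04 (48 h), 7.32 (60 h), 18.6 (72 h) and 69.4 FPKM (96 h). Sox17, Gata6 and Foxa2 stayed under 1 FPKM, at 0.149 (60 h) and 0.7198 FPKM (72 h), 0.164 (60 h) and 0.504 FPKM (72 h) and 0.333 (60 h) and 0.753 FPKM (72 h). Foxa1 was at 0.143 (60 h) and 0.0809 FPKM (72 h), and Ttr, Afp and Apoa1 were all under 0.5 FPKM.

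On a list of primitive endoderm markers, which shares 9 genes with the endoderm list, 2 of the 6 genes with at least 1 FPKM at both timepoints rose, Dab2 and Lama1, and the median log2 ratio of the 6 was 0.80. Like Gata4 and Cubn, Srgn, the serglycin gene, passed the minimum through 72 h alone, with 0.913 (48 h), 0.779 (60 h), 3.43 (72 h) and 4.44 FPKM (96 h). Sox7 stood at 0.074 (60 h) and 0.442 FPKM (72 h) and Pdgfra was under 0.5 FPKM at both.

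The keratin gene Krt8 of simple epithelia rose as well. Krt8 (chr15:101996698-102004482) had 12.8, 10.2, 9.18, 16.2, 48.9, 113 and 272 FPKM at 0, 24, 36, 48, 60, 72 and 96 h, and its partner Krt18 11.4, 13.6, 38.8, 55.2, 145, 232 and 670.3 FPKM, a log2 ratio of 0.68 for 60 to 72 h. Both had higher values at each step from 48 to 96 h, whereas Nodal was lower at 96 h than at 72 h. Krt8 and Gata3 (0.474 (48 h), 0.733 (60 h), 2.698 (72 h) and 3.11 FPKM (96 h)) were the 2 of 5 genes with at least 1 FPKM that rose on the neural crest and surface ectoderm list. Gata3 passed the minimum through 72 h alone, and of the 3 genes with at least 1 FPKM at both timepoints 1 rose. Tfap2c had 5.71 (60 h) and 8.05 FPKM (72 h), while Tfap2a and Tfap2b were under 0.5 FPKM. On the trophoblast list Gata3 was the 1 of 7 that rose, and of the 5 with at least 1 FPKM at both timepoints 0 rose. Tead4 had 2.62 (60 h) and 4.51 FPKM (72 h) and Krt7 1.98 (60 h) and 3.51 FPKM (72 h), and Cdx2 and Elf5, which define trophoblast stem cells, were at 0 (60 h) and 0.0575 FPKM (72 h) and 0.209 (60 h) and 0.0293 FPKM (72 h).

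Neurectoderm genes were present at low levels. Of 32 listed, 9 had at least 1 FPKM, 1 rose and 0 fell, and the median log2 ratio was 0.36 (0.25 after the length classes). Sox1, the earliest definitive neural marker, rose and had 1.02, 1.63, 0.6299, 0.464, 2.02, 4.16 and 13.3 FPKM at 0, 24, 36, 48, 60, 72 and 96 h, a log2 ratio of 1.04 that became 0.92 after the length classes. Pax6 had 0.946 (48 h), 2.17 (60 h), 2.81 (72 h) and 4.41 FPKM (96 h), Meis2 1.11 (48 h), 3.68 (60 h), 5.92 (72 h) and 13.7 FPKM (96 h) and Nes 16.1 (48 h), 15.2 (60 h), 22.98 (72 h) and 14.6 FPKM (96 h). Zic1 was under 0.05 FPKM at both. Sox11, Tubb3 and Ptn were slightly lower at 72 h, with log2 ratios of -0.24, -0.34 and -0.10, the last above 0 once both columns were scaled to the same sum.

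Primitive streak genes stayed mostly under the limit. Only 6 of 32 reached 1 FPKM, 1 rose and 0 fell. T (Brachyury), the mesoderm factor gene, had 0.255 (60 h) and 0.531 FPKM (72 h), Mixl1 0.353 (60 h) and 0.263 FPKM (72 h) and Eomes 0.854 (60 h) and 0.762 FPKM (72 h). Fgf8, a ligand gene of the streak and of neural organisers, rose and had 0.975 (48 h), 0.847 (60 h), 2.07 (72 h) and 4.49 FPKM (96 h). It passed the minimum through 72 h alone, and of the 5 listed genes with at least 1 FPKM at both timepoints 0 rose. Wnt3, Tbx6 and Foxa2 had log2 ratios of 1.59, 1.08 and 1.18 but stayed under 1 FPKM and were not counted. Of the cardiac and lateral plate mesoderm genes 5 of 17 reached 1 FPKM, and Myl7, an atrial myosin light chain gene, fell from 4.44 to 2.13 FPKM, a log2 ratio of -1.06 that became -0.77 after the length classes. Hand1 had 0.307 (60 h) and 0.584 FPKM (72 h), Isl1 0.342 (60 h) and 0.333 FPKM (72 h), and Hand2 was listed at 0 at 60 h.

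Among the Fgf and ERK genes 2 of 23 rose, Fgf8 and Il17rd, and 0 fell, where 2.97% of all genes tested rose. With at least 1 FPKM at both timepoints, 1 of 22 rose, Il17rd. The median log2 ratio of the 23 was 0.33 (0.29 after the length classes). Il17rd (chr14:27038941-27107286), which encodes the feedback antagonist Sef, had 5.03, 6.06, 3.31, 4.04, 5.05, 14.3 and 5.197 FPKM at 0, 24, 36, 48, 60, 72 and 96 h, with its highest value at 72 h. The other feedback genes leaned the same way by less than 2-fold, with log2 ratios of 0.54 for Dusp6, 0.55 for Spry2, 0.33 for Spry4, 0.31 for Spred1 and 0.26 for Dusp4. Etv4, an ERK target, went the other way, with 18.8 (60 h) and 10.5 FPKM (72 h), and Etv5 had 67.4 (60 h) and 70.5 FPKM (72 h). The receptor genes Fgfr1 and Fgfr2 had 33.9 (60 h) and 43.8 FPKM (72 h) and 25.6 (60 h) and 40.9 FPKM (72 h), and the ligand gene Fgf17 2.86 (60 h) and 5.49 FPKM (72 h). Fgf3 was under 0.5 FPKM.

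Wnt, BMP, retinoic acid and Notch genes gave few changes of this size. On the Wnt list 2 of 14 rose, the ligand gene Wnt6 (0.583 (48 h), 1.09 (60 h), 2.74 (72 h) and 2.92 FPKM (96 h)) and Porcn, whose product acylates Wnt ligands (0.555 (48 h), 0.5501 (60 h), 1.45 (72 h) and 1.71 FPKM (96 h)). Porcn passed the minimum through 72 h alone, and of the 13 genes with at least 1 FPKM at both timepoints 1 rose. The target gene Axin2 had 2.53 (60 h) and 2.799 FPKM (72 h), Lef1 11.02 (60 h) and 7.76 FPKM (72 h) and Tcf7 36.1 (60 h) and 38.6 FPKM (72 h), and the list median was 0.18. On the BMP list 0 of 12 changed 2-fold, with a median of 0.31. Bmp7 had 1.52 (48 h), 3.85 (60 h), 6.85 (72 h) and 26.1 FPKM (96 h) and Bmp4 1.73 (48 h), 1.48 (60 h), 0.918 (72 h) and 3.68 FPKM (96 h), and Bmp2 was under 0.1 FPKM. The BMP target Id1 had 3.75 (48 h), 4.53 (60 h), 5.96 (72 h) and 80.9 FPKM (96 h) and Id3 36.3 (48 h), 13.7 (60 h), 13.8 (72 h) and 123 FPKM (96 h), so both stayed near their 60 h level until 72 h and were far higher at 96 h.

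Retinoic acid genes had a median log2 ratio of 0.06, and Aldh1a3, a retinaldehyde dehydrogenase gene, was the 1 of 13 that fell, with 11.6 (48 h), 8.71 (60 h), 2.64 (72 h) and 1.61 FPKM (96 h). Cyp26a1, which encodes the retinoic acid hydroxylase, had 0.121 (48 h), 2.49 (60 h), 2.82 (72 h) and 17.6 FPKM (96 h), and Cyp26b1 and Cyp26c1 were under 0.1 FPKM. Notch4 was the 1 of 13 Notch genes that fell, from 1.08 to 0.155 FPKM, close to the limit. It passed the minimum through 60 h alone, and of the 12 genes with at least 1 FPKM at both timepoints 0 fell. The list median was 0.20. Notch1, Notch2 and Notch3 had 7.796 (60 h) and 9.89 FPKM (72 h), 8.79 (60 h) and 12.9 FPKM (72 h) and 14.9 (60 h) and 27.4 FPKM (72 h). The target gene Hes1 had 42.3 (60 h) and 66.9 FPKM (72 h).

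Cytoskeletal and YAP target genes were mostly higher at 72 h. Of 21 with at least 1 FPKM, 4 rose and 0 fell, beside 2.97% and 2.27% of all genes tested. Axl, 1 of the 4, was under 1 FPKM at 60 h, and of the 20 with at least 1 FPKM at both timepoints 3 rose. The median log2 ratio was 0.54 (0.59 after the length classes), with 16 of the 21 above 0, against 52.6% of all genes with a ratio. Ctgf, a secreted matricellular protein gene and YAP target, had 26.2, 20.1, 8.003, 8.72, 25.4, 60.7 and 29.6 FPKM at 0, 24, 36, 48, 60, 72 and 96 h. Ankrd1, another YAP target, had 0.635 (48 h), 1.02 (60 h), 2.34 (72 h) and 7.37 FPKM (96 h), Axl, a receptor tyrosine kinase gene, 1.95 (48 h), 0.9604 (60 h), 2.02 (72 h) and 2.53 FPKM (96 h), and Anxa3, an annexin gene, 2.54 (48 h), 4.26 (60 h), 10.5 (72 h) and 39.5 FPKM (96 h). Cyr61 and Amotl2 had log2 ratios of 0.77 and 0.71. Acta2, the smooth muscle actin gene, had 19.5 (60 h) and 32.4 FPKM (72 h), Acta1 26.3 (60 h) and 38.4 FPKM (72 h) and Tagln 42.5 (60 h) and 81.7 FPKM (72 h), while Actg2 was under 0.5 FPKM. Srf, Myl9, Tpm2, Cnn2 and S100a6 were slightly lower at 72 h, and of these only Myl9 was still lower once both columns were scaled to the same sum.

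Epithelial junction genes changed less than 2-fold. Cdh1, the E-cadherin gene, had 161 (60 h) and 193 FPKM (72 h), Epcam 184 (60 h) and 182 FPKM (72 h) and Cldn6 126 (60 h) and 129.9 FPKM (72 h). On that list 2 of 21 rose, Krt8 and the basement membrane collagen gene Col4a2 (2.17 (48 h), 2.097 (60 h), 5.25 (72 h) and 15.1 FPKM (96 h)), and 0 fell, where 2.97% of all genes tested rose. Mesenchymal genes differed in level, with Cdh2 (N-cadherin) at 1.18 (60 h) and 1.31 FPKM (72 h) and Zeb1 under 1 FPKM, while Vim had 53.5 (60 h) and 57.02 FPKM (72 h). The list median was 0.34.

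Among immediate early genes only Egr2 was counted as a rise, listed at 0 at 60 h and at 1.17 FPKM at 72 h. It passed the minimum through 72 h alone. Fos had 1.01 (60 h) and 1.95 FPKM (72 h), Fosl1 0.396 (60 h) and 0.966 FPKM (72 h), Fosb under 0.5 FPKM and Junb 12.2 (60 h) and 24.3 FPKM (72 h). The list median was 0.37.

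**Figure D4:**
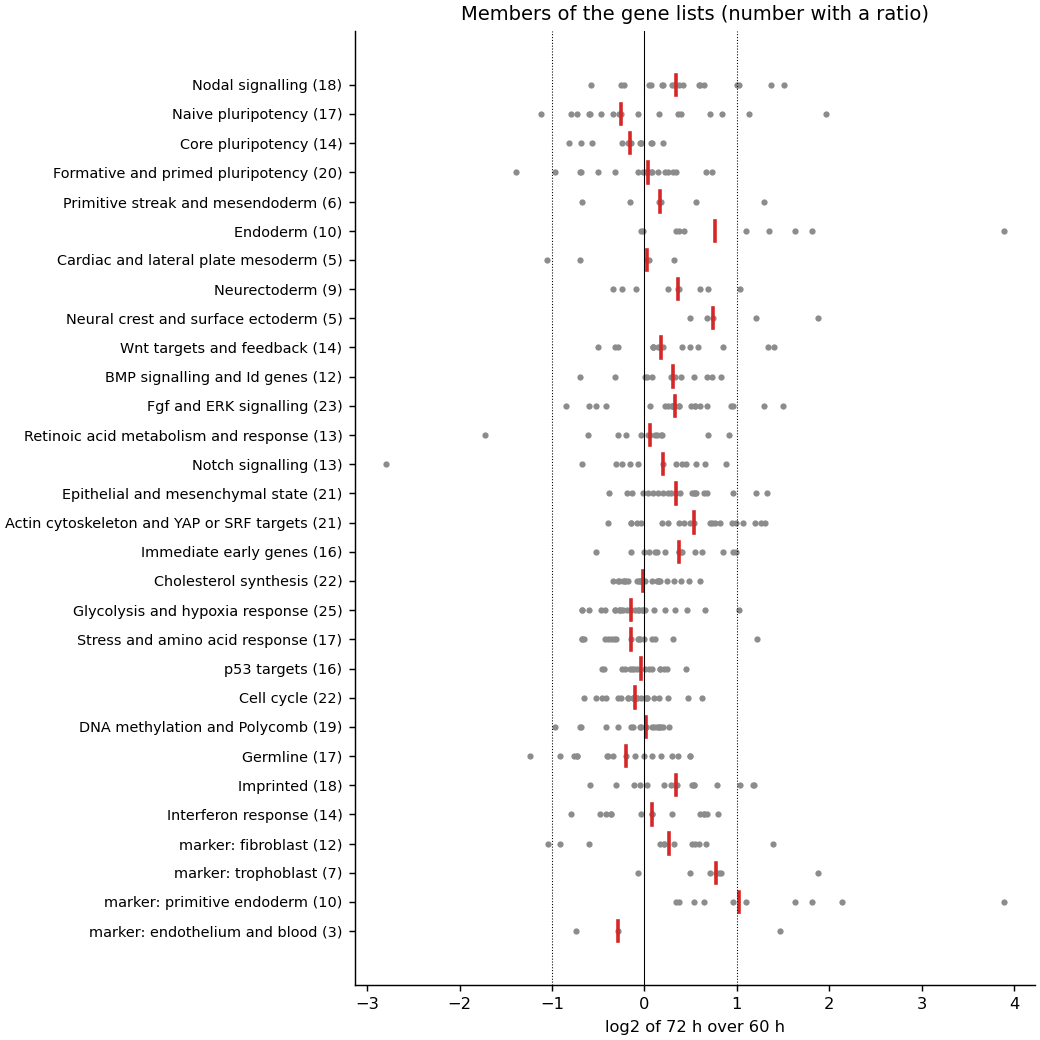
Grey points are the genes of each list with at least 1 FPKM at 60 h or 72 h and a ratio, on a log2 axis of 72 h over 60 h, and red bars are list medians. Dotted lines mark 2-fold, and the number of genes is given in brackets. Primitive endoderm, trophoblast and endoderm medians lie farthest to the right, with members among them that reached 1 FPKM at 72 h alone. The median of the endothelium and blood list, with 3 genes, lies farthest to the left at -0.29. Others left of 0 include naive pluripotency, whose median is 0.02 after the length classes, germline and core pluripotency.

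Metabolic lists held few changes of this size. Of the cholesterol synthesis genes 0 of 22 changed 2-fold, with a median log2 ratio of -0.01, Hmgcs1 at 129 (60 h) and 122 FPKM (72 h) and Mvd at 34.4 (60 h) and 29.6 FPKM (72 h). Of 25 glycolysis and hypoxia genes 1 rose, the glucose transporter gene Slc2a3 (GLUT3), with 338, 47.9, 24.9, 27.7, 199, 404 and 889.5 FPKM at 0, 24, 36, 48, 60, 72 and 96 h, a log2 ratio of 1.02 that became 0.87 after the length classes. Its relative Slc2a1 (GLUT1) had 143 (60 h) and 181 FPKM (72 h) and Hk1 9.39 (60 h) and 10.9 FPKM (72 h), while Hk2 and Ldha were lower at 72 h, with log2 ratios of -0.68 and -0.67. The list median was -0.14 (-0.11 after the length classes).

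Gadd45b, a stress and growth arrest gene, was the 1 of 17 stress genes that rose, with 24.7, 7.99, 4.88, 6.69, 45.6, 106 and 117 FPKM at the 7 timepoints. Its paralogues did not follow it, with Gadd45a at 34.1 (60 h) and 26.5 FPKM (72 h) and Gadd45g at 22.6 (60 h) and 28.02 FPKM (72 h). Atf4 had 149 (60 h) and 111 FPKM (72 h), Ddit3 27.99 (60 h) and 30.2 FPKM (72 h) and Trib3 23.3 (60 h) and 14.5 FPKM (72 h), and the list median was -0.15. Of the p53 targets 0 of 16 changed 2-fold, with Cdkn1a at 33.7 (60 h) and 24.5 FPKM (72 h), Mdm2 at 54.3 (60 h) and 49.3 FPKM (72 h) and Ccng1 at 99.6 (60 h) and 84.3 FPKM (72 h) and a median of -0.03. Of the cell cycle genes 0 of 22 changed 2-fold, with a median of -0.10 (-0.11 after the length classes). Ccnd1, Ccnd2 and Ccnd3 had 43.03 (60 h) and 35.4 FPKM (72 h), 0.802 (60 h) and 0.822 FPKM (72 h) and 42.99 (60 h) and 43.9 FPKM (72 h). The S phase genes Pcna, Mcm2, Mcm5 and Ccne1 had log2 ratios of -0.25, -0.11, -0.13 and -0.42, all below 0 in the deposited values, while Mcm2 and Mcm5 were above 0 once both columns were scaled to the same sum.

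Germline genes had the second lowest median of the pathway lists. Of 17 with at least 1 FPKM 1 fell and 0 rose, and the median log2 ratio was -0.20 (-0.25 after the length classes). Dazl, an RNA-binding protein gene of germ cells, fell, with 9.36 (48 h), 6.08 (60 h), 2.59 (72 h) and 0.667 FPKM (96 h). Ddx4 had 4.13 (60 h) and 5.08 FPKM (72 h) and Sycp1 2.04 (60 h) and 1.77 FPKM (72 h). Mael, Hormad1 and Rhox5 were lower by less than 2-fold, with log2 ratios of -0.76, -0.92 and -0.73.

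Imprinted genes included 3 risers of 18 and 0 fallers, where 2.97% of all genes tested rose, with a median of 0.34 (0.24 after the length classes). The neighbours H19, a noncoding RNA gene, and Igf2, a growth factor gene, rose, with 44.8 (48 h), 56.8 (60 h), 116 (72 h) and 491 FPKM (96 h) and 2.51 (48 h), 2.37 (60 h), 5.35 (72 h) and 16.7 FPKM (96 h), as did Plagl1, a zinc finger factor gene, with 1.15 (48 h), 2.1004 (60 h), 4.77 (72 h) and 7.22 FPKM (96 h). Igf2r had 9.46 (60 h) and 11.5 FPKM (72 h). On the interferon list 0 of 14 changed 2-fold and the median was 0.08, with Ifit2 at 1.72 (60 h) and 2.699 FPKM (72 h) and Ifit1 and Ifit3 under 0.5 FPKM.

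Markers of other cells were low. The iPSCs had been grown on fibroblast feeders before 2i/LIF. Of 20 fibroblast markers 12 had at least 1 FPKM, with Col1a1 at 2.204 (60 h) and 3.14 FPKM (72 h), Col1a2 at 2.56 (60 h) and 2.96 FPKM (72 h) and Col3a1 at 1.47 (60 h) and 0.968 FPKM (72 h). Loxl1 rose from 0.83 to 2.17 and Mfap5 fell from 8.13 to 3.93 FPKM. Loxl1 passed the minimum through 72 h alone, and of the 9 markers with at least 1 FPKM at both timepoints 0 rose and 1 fell. The summed level of the list was 49.1 FPKM at 60 h and 54.1 FPKM at 72 h. Endothelial and blood markers reached 1 FPKM for 3 of 19 genes. Flt1 rose from 0.401 to 1.11 FPKM, Pecam1 had 5.297 (60 h) and 4.34 FPKM (72 h), Tek 0.6598 (60 h) and 0.5198 FPKM (72 h), and Cdh5 was under 0.05 FPKM. Flt1 too passed the minimum through 72 h alone, and of the 2 genes with at least 1 FPKM at both timepoints 0 rose.

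Among genes reaching 10 FPKM, those with the largest ratios outside the histone family were of varied function. By ratio, Tinagl1, a matrix glycoprotein gene, came first of these with 0.612 (48 h), 3.78 (60 h), 10.98 (72 h) and 21.5 FPKM (96 h). Il17rd, described above, was also among the 12 largest rises at that level, as were Rreb1, a zinc finger factor gene, with 7.34 (48 h), 5.36 (60 h), 15.03 (72 h) and 8.27 FPKM (96 h), and Mme, the neprilysin gene, with 3.37 (48 h), 5.16 (60 h), 14.2 (72 h) and 8.05 FPKM (96 h). Tinagl1 was higher still at 96 h, whereas Il17rd, Rreb1 and Mme were lower there than at 72 h.

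The 12 largest falls among genes reaching 10 FPKM were spread over genes of different kinds. Tex14, a gene of germ cell bridges, had 15.2 (48 h), 18.8 (60 h), 5.46 (72 h) and 5.34 FPKM (96 h), Rec114, a gene of meiotic recombination, 32.6 (48 h), 19.8 (60 h), 6.43 (72 h) and 3.38 FPKM (96 h), and Morc1, a gene of transposon silencing in male germ cells, 29.1 (48 h), 12.2 (60 h), 4.52 (72 h) and 1.25 FPKM (96 h). Dpys, which encodes dihydropyrimidinase, had 21.8 (48 h), 11.9 (60 h), 4.02 (72 h) and 1.97 FPKM (96 h), Gpx2, a glutathione peroxidase gene, 29.1 (48 h), 14.2 (60 h), 5.104 (72 h) and 2.24 FPKM (96 h), and Calml4, a calmodulin-like gene, 25.004 (48 h), 13.2 (60 h), 4.26 (72 h) and 0.913 FPKM (96 h). Mdn1, whose product is an AAA ATPase of ribosome biogenesis, had 59.7 (48 h), 69.97 (60 h), 27.1 (72 h) and 40.1 FPKM (96 h). Pim2 was given above. The remaining 4 were Sssca1 with 237 (48 h), 153 (60 h), 55.02 (72 h) and 56.7 FPKM (96 h), Lyrm9 with 18.9 (48 h), 24.7 (60 h), 8.197 (72 h) and 16.7 FPKM (96 h), 2410088K16Rik with 11.3 (48 h), 14.6 (60 h), 4.59 (72 h) and 0.618 FPKM (96 h) and G530011O06Rik with 4.28 (48 h), 11.3 (60 h), 3.72 (72 h) and 30.6 FPKM (96 h). G530011O06Rik, Lyrm9, Mdn1 and, slightly, Sssca1 were higher at 96 h than at 72 h, while the other 8 were lower there.

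**Figure D5:**
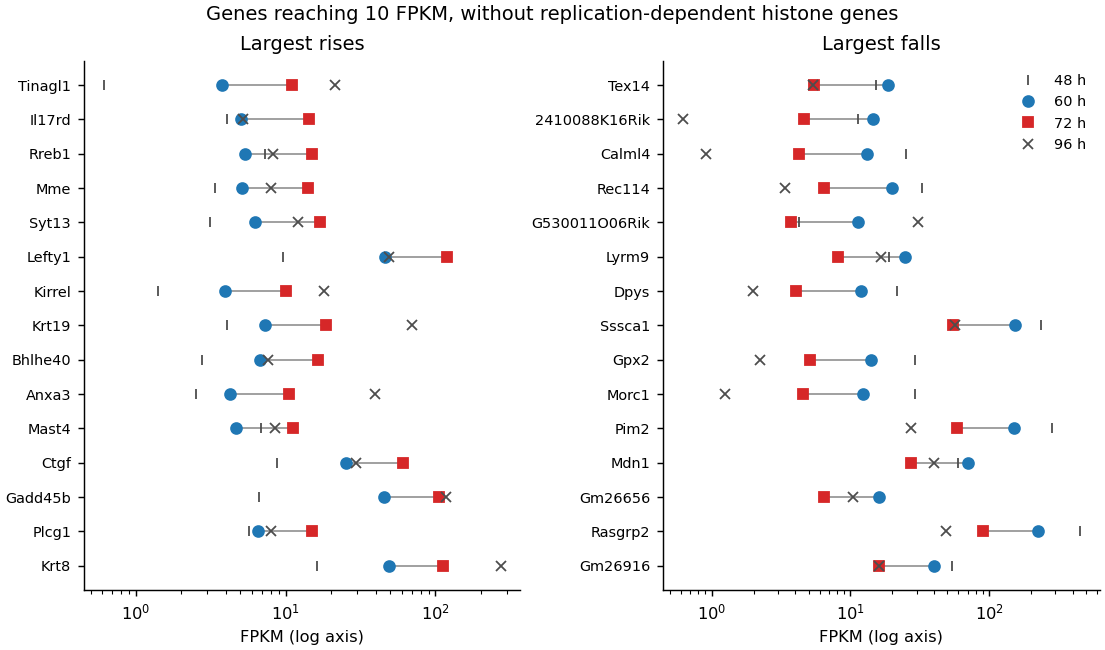
Shown are 15 of the largest rises (left) and falls (right) by ratio among genes reaching 10 FPKM, without the histone genes, a choice made after their values were seen. The x axis is FPKM on a log axis. Blue circles are 60 h and red squares 72 h, joined by a line, and bars and crosses are 48 h and 96 h.

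Columns that took no part in the ratio were then compared for the same genes. At 96 h against 48 h, a rise of at least 2-fold covered 13.4% of the genes tested and a fall of that size 9.8%. Of the 375 risers, 183 (48.8%) were higher by that much at 96 h and 19 (5.07%) lower. Of the 287 fallers, 25 (8.71%) were higher and 132 (45.99%) lower. Among the other 5 timepoints, 58.4% of the risers had their highest value at 96 h, against 32.6% of all genes tested. The fallers were spread, with 12.9% highest at 96 h. With at least 1 FPKM in both columns there were 179 risers and 126 fallers. The others were tested only through the column in which they were high. Risers and fallers were not matched for level with all genes tested, and the part of either limit in these shares was not tested.

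OSKM induction gave a further comparison with its own samples. Cells differentiated for 48 h were re-seeded in serum/LIF with (+dox) or without dox (–dox), and in +dox 5.14% of the genes tested had at least 2 times their –dox value and 5.06% at most 0.5 times. Of the 375 risers 26 (6.93%) were higher and 96 (25.6%) lower. Of the 287 fallers 56 (19.5%) were higher and 21 (7.32%) lower. The limits given for 96 h against 48 h hold for these shares too. Krt8 had 527 FPKM in –dox and 106 in +dox, Nodal 61.5 and 23.2, and Lefty1 96.2 and 32.4. The histone genes did not share this difference, with a summed 7693 FPKM in –dox and 7901 FPKM in +dox.

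Chromosome 13 held 42 of the risers among its 451 genes tested, and 9 of the 42 were not histone genes. Among the other chromosomes with at least 100 genes tested the number of risers ran from 6 to 31. The 6 were of 398 genes tested on chromosome 19 and the 31 of 974 on chromosome 2. Risers were protein coding in 83.1% of those with an annotated type, and fallers in 65.4%, against 94.4% of all genes tested. The median longest transcript was 3128 nt for the risers without histone genes, 1548 nt for the fallers and 3232 nt for all genes tested. Changes of 2-fold were most frequent at low levels, and neither the gene types nor the lengths were matched for level.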

How the data were processed

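RNA-seq was done on polyadenylated RNA (oligo(dT) selection, fragmentation, Illumina HiSeq 2000). The authors mapped reads to mm10 with TopHat2 2.0.14 and the Gencode vM4 annotation, and made the deposited FPKM values with Cufflinks 2.2.1 (Cuffquant, Cuffdiff), which combined the 2 replicates of a condition into 1 value. The table also holds 5 columns of the authors' own calls between conditions, which were not used. Depth is not given. Among 171 genes under 0.05 FPKM in both columns with a ratio between 0.85 and 1.3, 141 lay within 1% of 4 ratios from 0.931 to 1.17. This is as when single reads of 2 libraries each are paired. By this the value of a read differed 1.09-fold between the replicates of 1 timepoint and 1.15-fold between those of the other. The 4 ratios alone do not settle which of these is 60 h and which 72 h.

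From the values, plain ratios of 72 h over 60 h were formed (Python 3.11.15, pandas 2.3.3), for genes with at least 1 FPKM in either. A change was counted at 2-fold. No test was run, and with 1 value per condition neither replicates nor a test of any difference were at hand. The counting was tested on simulated data. Transcript lengths and positions are from Gencode M21, also on GRCm38 (mm10), and 95.4% of the genes tested had one. Length classes were deciles of the longest transcript, without histone genes. Symbols turned into dates, in 27 rows, are not named. Named genes are the 12 largest ratios per direction among genes reaching 10 FPKM, the 5 largest differences in FPKM per direction, genes of 30 lists that changed 2-fold, and the first 3 genes of each list, except some that are not reported here. Lists and members were chosen with earlier results of these data known. Alternatives changed the minimum, the fold, the scaling and an added constant. Leaving out the histone genes and the length classes were chosen after seeing the data.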

Additional observations from a re-analysis of the deposited data

How the results depend on the processing

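The counts of 375 risers and 287 fallers depended on the limits set. They were 1175 and 923 with no minimum level, 179 and 126 with at least 1 FPKM in both columns, 103 and 71 with at least 5 FPKM in the higher one, 1135 and 878 at 1.5-fold, 102 and 97 at 3-fold, and 127 and 97 after adding 1 FPKM to each value. Scaling both columns to the same sum gave 630 risers and 201 fallers. After dividing by the median ratio (1.01) the counts were 357 and 297, after adding 0.1 FPKM 328 and 258, without histone genes 339 and 287, and after the length classes 395 and 252. Of those, 333 and 225 were among the original risers and fallers. Scaling to the same sum turned the sign of 6 of the 30 list medians, the length classes 4, the wider membership 2 and the median ratio 1. The 6 were core pluripotency, cholesterol synthesis, glycolysis, stress, p53 targets and cell cycle, all with medians just below 0. No named gene that changed 2-fold turned its sign under the scalings, added constants or length classes. Of the 38 list genes that changed 2-fold and had a ratio, 1 was under 2-fold after the median ratio (Nodal), 3 after scaling to the same sum (Tdh, Myl7, Mfap5), 3 after adding 0.1 FPKM (Nodal, Jam2, Axl) and 5 after the length classes (Smad7, Dab2, Myl7, Sox1, Slc2a3). No paired analysis was possible because the table gives 1 combined value per condition, and for the same reason leaving out a replicate could not be run. Low values rest on an unknown number of reads and set most of the counts.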

Other observations

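The risers and fallers named here were chosen after their values were seen and stand for themselves, not for a pathway. The insulin-like growth factor binding protein genes Igfbp3 and Igfbp4 had 6.205 (48 h), 20.1 (60 h), 45.8 (72 h) and 44.8 FPKM (96 h) and 3.38 (48 h), 5.63 (60 h), 11.6 (72 h) and 10.9 FPKM (96 h), and Irs2, an adaptor gene of the insulin and IGF receptors, had 6.19 (48 h), 9.32 (60 h), 20.96 (72 h) and 19.8 FPKM (96 h). Fabp3, a fatty acid binding protein gene, had 10.2 (48 h), 33.4 (60 h), 75.4 (72 h) and 98.8 FPKM (96 h), and Cpt1a, which encodes the carnitine transferase that admits long-chain fatty acids to mitochondria, 1.58 (48 h), 2.58 (60 h), 5.86 (72 h) and 2.18 FPKM (96 h). Cpt1a was back near its 60 h value at 96 h, and Fabp3 was not.

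Other risers were higher still at 96 h. Dsp (desmoplakin) had 2.13 (48 h), 5.09 (60 h), 10.4 (72 h) and 22.9 FPKM (96 h), Amot, a gene of the Hippo pathway, 1.695 (48 h), 1.57 (60 h), 5.19 (72 h) and 10.8 FPKM (96 h), and Pmp22 1.51 (48 h), 1.54 (60 h), 4.05 (72 h) and 35.7 FPKM (96 h). Cryab and Hspb2, small heat shock protein genes that lie side by side, had 2.09 (48 h), 2.72 (60 h), 9.07 (72 h) and 39.1 FPKM (96 h) and 1.91 (48 h), 2.55 (60 h), 7.35 (72 h) and 18.6 FPKM (96 h), and reads of overlapping neighbours cannot be told apart in these values. Bhlhe40, a transcription factor gene, rose and was lower again at 96 h, with 2.78 (48 h), 6.703 (60 h), 16.6 (72 h) and 7.63 FPKM (96 h), as was Mnt, the MAX-binding repressor gene, with 19.4 (48 h), 13.05 (60 h), 28.1 (72 h) and 14.2 FPKM (96 h).

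Among the fallers, Tnnt1, a troponin T gene, had 66.8 (48 h), 52.6 (60 h), 24.9 (72 h) and 15.2 FPKM (96 h) and Mylpf, a myosin light chain gene, 39.6 (48 h), 23.2 (60 h), 10.4 (72 h) and 12.3 FPKM (96 h). Rpl10l and Rpl39l, paralogues of ribosomal protein genes, had 79.3 (48 h), 34.8 (60 h), 14.9 (72 h) and 2.58 FPKM (96 h) and 125 (48 h), 89.05 (60 h), 41.5 (72 h) and 8.32 FPKM (96 h), and Cox7b2, a cytochrome c oxidase subunit gene, had 10.7 (48 h), 10.4 (60 h), 4.52 (72 h) and 0.802 FPKM (96 h). Rasgrp2, which encodes an exchange factor for Rap GTPases, was among the most abundant fallers, with 52.6, 313, 443, 451, 225, 90.2 and 48.9 FPKM at 0, 24, 36, 48, 60, 72 and 96 h. Gpx4, the glutathione peroxidase gene of lipid peroxides, had 916, 448, 692, 612, 1432, 663 and 675 FPKM at those timepoints, so its value at 60 h stood above both neighbours.

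At 0 FPKM in a column were 25 of the genes tested, 13 listed at 0 at 60 h and 12 at 72 h. Most of them are predicted genes without a name in use, and no ratio can be given for them.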
